A study of Mus musculus with 9 samples.

Results

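The genes described here are 35 genes of ribosome biogenesis and RNA polymerase I, chosen by symbol for their known roles in the nucleolus. Their values were not the rule of choice, but earlier results of these data were known when they were chosen. All 35 were among the 17596 genes of the deposited table and among the 10823 genes tested. They were measured by RNA sequencing of primary B cells from the spleen of 6 to 8 week old mice on the C57BL/6J background. The control was the *Mb1Cre* mouse, in which Cre recombinase is driven by *Mb1* (*Cd79a*) in the B cell lineage. In *Mct1f/fMb1Cre* mice, labelled cKO and called *Mct1*-deficient here, Cre acts on 2 floxed copies of *Mct1*, whose loxP sites enclose a segment from exon 1 to intron 3. Every group carried the *Mb1Cre* allele, so a control without Cre is not part of the comparison. Naïve B cells (day 0) gave 2 control and 2 *Mct1*-deficient libraries, and B cells kept for 3 days in IL-4 (50 ng/ml) and LPS (10 μg/ml) gave 2 and 3 libraries. LPS activates B cells through the receptor TLR4, and IL-4 is the cytokine that directs their class switching to IgG1 and IgE.

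Ribosomes are built in the nucleolus, where RNA polymerase I transcribes the ribosomal DNA into a long precursor RNA. Small nucleolar ribonucleoproteins (snoRNPs) modify this precursor, with box C/D particles guiding methylation and box H/ACA particles guiding pseudouridylation. Processing factors then cut it and assemble it with ribosomal proteins into the small (40S) and the large (60S) subunit. A naïve B cell is small and quiescent, and growth and division after activation require new ribosomes.

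Values were in FPKM, which scale fragments to the length of the transcript and to the mapped fragments of the library. They hold no read counts, so depth and counting error are unknown. The FPKM of all genes summed to 477079 to 491460 in the day 0 libraries and 547355 to 563586 in the day 3 libraries. *Slc16a1*, the symbol of *Mct1*, fell between genotypes on day 3 to 44.1% of the control (log2 fold change -1.11, adjusted p = 9.07e-06 from limma). On day 0 it did not separate the genotypes (log2 fold change -0.05, adjusted p = 0.844). All 6 B cell markers were present in every library, with a sum of 4183 to 4612 FPKM on day 0 and 2182 to 2271 FPKM on day 3. The sum of 8 myeloid markers was 1081 to 1855 FPKM on day 0 and 23.1 to 36.2 FPKM on day 3. Erythroid and platelet markers summed to 98.4 to 179 FPKM on day 0 and 7.06 to 10.2 FPKM on day 3, and T cell markers to 26.7 to 30.1 and 0.770 to 1.37 FPKM. The list of 4 NK cell markers summed to 67.0 to 82.8 FPKM on day 0 and 85.3 to 98.4 FPKM on day 3. That rise came from *Gzma* alone, at 35.4 to 42.0 FPKM on day 0 and 79.5 to 92.5 FPKM on day 3. *Ncr1*, *Klrb1c* and *Nkg7* fell, the last from 17.2 to 24.1 FPKM to 4.52 to 6.10 FPKM. The myeloid, erythroid, platelet, T cell and NK cell values thus moved with the day, and their part in the activation values below was not tested. In bulk RNA, fewer cells of a type and less RNA per cell cannot be told apart. The Y-linked gene *Ddx3y* stood at 0.240 and 0.0200 FPKM in the naïve control libraries, 31.1 and 0.200 FPKM in the naïve *Mct1*-deficient libraries and 14.7 to 16.9 FPKM in all day 3 libraries. In the control, activation and the sex of the mice thus cannot be told apart. Of the naïve libraries only *Mct1*-deficient library 1 had *Ddx3y* at a high level. Sex is thus also partly mixed with the day 0 genotype comparison and with that of activation between genotypes. The same library had the highest value of the myeloid marker *S100a9*, 514 FPKM. Without naïve *Mct1*-deficient library 2, activation in that genotype is seen among libraries with *Ddx3y* only. The labels name no mouse for any library, so p values measure the spread between these libraries, which may be technical.

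By the GENCODE annotation of GRCm38 the 35 genes lie on 17 chromosomes. The genes *Ncl*, *Gnl3*, *Nop56*, *Nop58*, *Dkc1* and *Wdr43* hold 19 small nucleolar RNA genes on their own strand. These 6 hosts were 17.1% of the 35 genes, against 1.97% of the 10553 tested genes found in the annotation. Another protein-coding gene overlaps 11 of the 35 (31.4%, against 26.3% of the tested genes). They are *Polr1e*, *Gnl3*, *Nop56*, *Rrp9*, *Nhp2*, *Dkc1*, *Wdr12*, *Bop1*, *Pes1*, *Rrp1b* and *Noc2l*. Whether reads were counted by strand is not given in the sources used here, so reads of such neighbours may be mixed. *Npm1* is also known for processed pseudogenes, and how reads shared with such copies were counted is not stated.

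Promoter windows of 300 bases, from 250 bases before the start of transcription to 50 bases after it, were taken from RefSeq (GRCm38.p6) for 30 of the 35 genes. *Bop1*, *Fbl*, *Npm1*, *Rrp12* and *Rrs1* had no entry. The windows were searched for the E-box CACGTG, which reads the same on both strands and is the sequence that MYC and related factors are known to bind. It stood in the windows of 5 genes (16.7%), namely *Nop2*, *Wdr43*, *Rrn3*, *Utp20* and *Pes1*, against 12.1% of 8790 tested genes with a window. Counted by window, it stood in 12.8% of the 39 windows of the 30 genes and in 7.15% of all 32851 windows. The median activation change in control B cells was 0.62 for these 5 genes and 0.98 for the 25 genes without the E-box, on the log2 scale. The windows had a median GC content of 57.3%, against 60.3% for the tested genes. The windows of *Nop2* (chr6:125131633-125131932, + strand), *Wdr43* (chr17:71615965-71616264, + strand) and *Utp20* (chr10:88826765-88827064, - strand) are shown because these genes hold the E-box and are followed below in every library. They are written 5′ to 3′ along the gene, with the E-box in capitals.
Nop2: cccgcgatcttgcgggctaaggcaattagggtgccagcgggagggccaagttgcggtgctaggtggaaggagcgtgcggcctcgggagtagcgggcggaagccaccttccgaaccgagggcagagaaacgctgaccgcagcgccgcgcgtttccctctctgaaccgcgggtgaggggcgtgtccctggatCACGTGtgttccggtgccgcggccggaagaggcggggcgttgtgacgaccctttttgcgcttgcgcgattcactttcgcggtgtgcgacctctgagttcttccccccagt
Wdr43: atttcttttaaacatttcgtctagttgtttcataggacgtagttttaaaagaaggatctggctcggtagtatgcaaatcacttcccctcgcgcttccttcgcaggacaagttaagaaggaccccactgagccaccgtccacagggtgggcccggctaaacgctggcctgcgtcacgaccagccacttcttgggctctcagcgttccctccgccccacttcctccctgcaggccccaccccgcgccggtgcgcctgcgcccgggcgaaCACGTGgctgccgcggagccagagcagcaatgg
Utp20: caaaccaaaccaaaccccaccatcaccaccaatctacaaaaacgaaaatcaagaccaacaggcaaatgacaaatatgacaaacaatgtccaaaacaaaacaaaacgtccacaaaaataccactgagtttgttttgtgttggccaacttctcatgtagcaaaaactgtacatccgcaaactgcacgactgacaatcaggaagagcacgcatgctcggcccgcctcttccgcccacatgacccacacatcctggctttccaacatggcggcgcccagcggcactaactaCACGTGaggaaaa
The E-box begins at base 191 of the window in *Nop2*, at base 268 in *Wdr43* and at base 288 in *Utp20*. In *Nop2* it thus lies before the start of transcription, and in the other two after it.

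Which of these genes changed with activation was asked first, on the log2(FPKM + 1) scale, where a gene was called if its adjusted p was under 0.05 and its log2 fold change exceeded 0.5 in either direction. In control B cells 29 of the 35 genes rose and 0 fell, and in *Mct1*-deficient B cells 31 rose and 0 fell. Of all tested genes, 24.8% were called higher and 33.0% lower in control B cells, and 23.4% and 33.2% in *Mct1*-deficient B cells. The share of the 35 genes called higher was 82.9% in control and 88.6% in *Mct1*-deficient B cells. Their median log2 fold change was 0.93 in control B cells, where that of all tested genes was -0.12, and 0.97 in *Mct1*-deficient B cells, where that of all tested genes was -0.14. The changes ran from 0.11 (*Ubtf*) to 1.98 (*Npm1*) in control B cells and from 0.14 (*Nop10*) to 1.71 (*Npm1*) in *Mct1*-deficient B cells. In 28 genes the call was made in both genotypes. *Polr1b*, *Polr1e* and *Pes1* were called in *Mct1*-deficient B cells and *Rrp1* in control B cells, and *Ubtf*, *Nop10* and *Noc3l* in neither. Some of these calls turned with the scaling. *Polr1b* was called in control with median-of-ratios scaling (0.56) and quantile normalization (0.52), and its call in *Mct1*-deficient B cells was lost with scaling to a common total (0.44) and with a pseudocount of 5 (0.48). *Rrp1* was lost in control with a common total (0.32) and quantile normalization (0.34) and was called in *Mct1*-deficient B cells with median-of-ratios scaling (0.66). *Noc3l* was called in both genotypes with median-of-ratios scaling (0.63 and 0.69) and quantile normalization (0.60 and 0.67). By the adjusted p alone, 33 and 34 of the 35 genes were higher on day 3, against 37.0% and 36.4% of all tested genes. The day 3 libraries lay above all day 0 libraries of the same genotype for 35 of 35 genes in control and 34 of 35 in *Mct1*-deficient B cells, where *Nop10* overlapped, against 40.4% and 38.3% of all tested genes. Without naïve *Mct1*-deficient library 2, the median log2 fold change in that genotype was 0.97. It then rested on 1 naïve library, the one with the highest *S100a9*. That library had *Ddx3y* at 31.1 FPKM, above the day 3 libraries, so an equal make-up by sex is not shown. The plots of levels by library and of activation changes by role show these patterns.

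**Figure D1:**
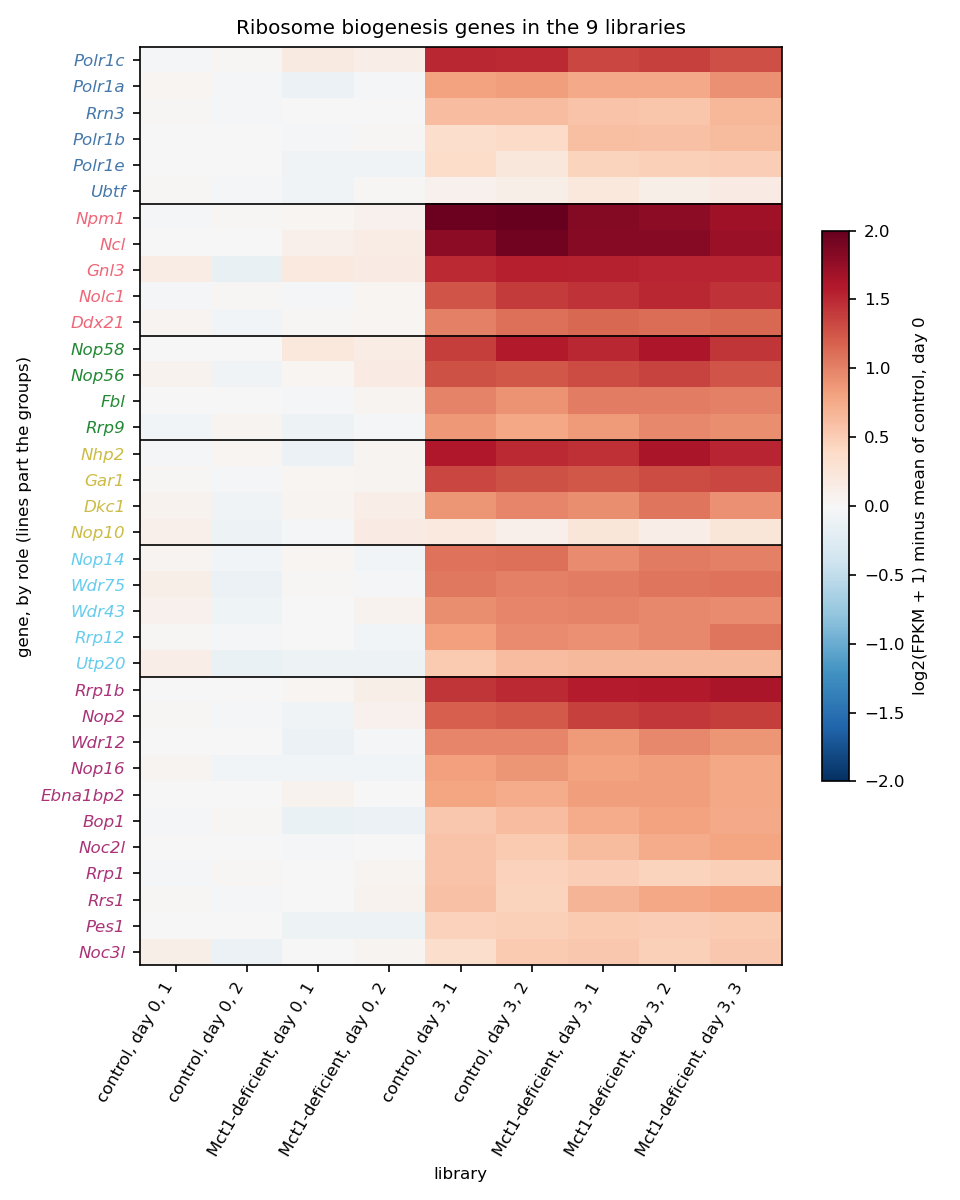
Log2(FPKM + 1) of each of the 35 genes (vertical axis, grouped from top to bottom into RNA polymerase I, nucleolar scaffold, box C/D, box H/ACA, 40S and 60S genes) in each library (horizontal axis), as the difference from the mean of the naïve control libraries (colour, log2 scale). The 4 day 0 libraries look nearly alike and the 5 day 3 libraries are higher, most in *Npm1* and *Ncl* and least in *Ubtf* and *Nop10*.

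**Figure D2:**
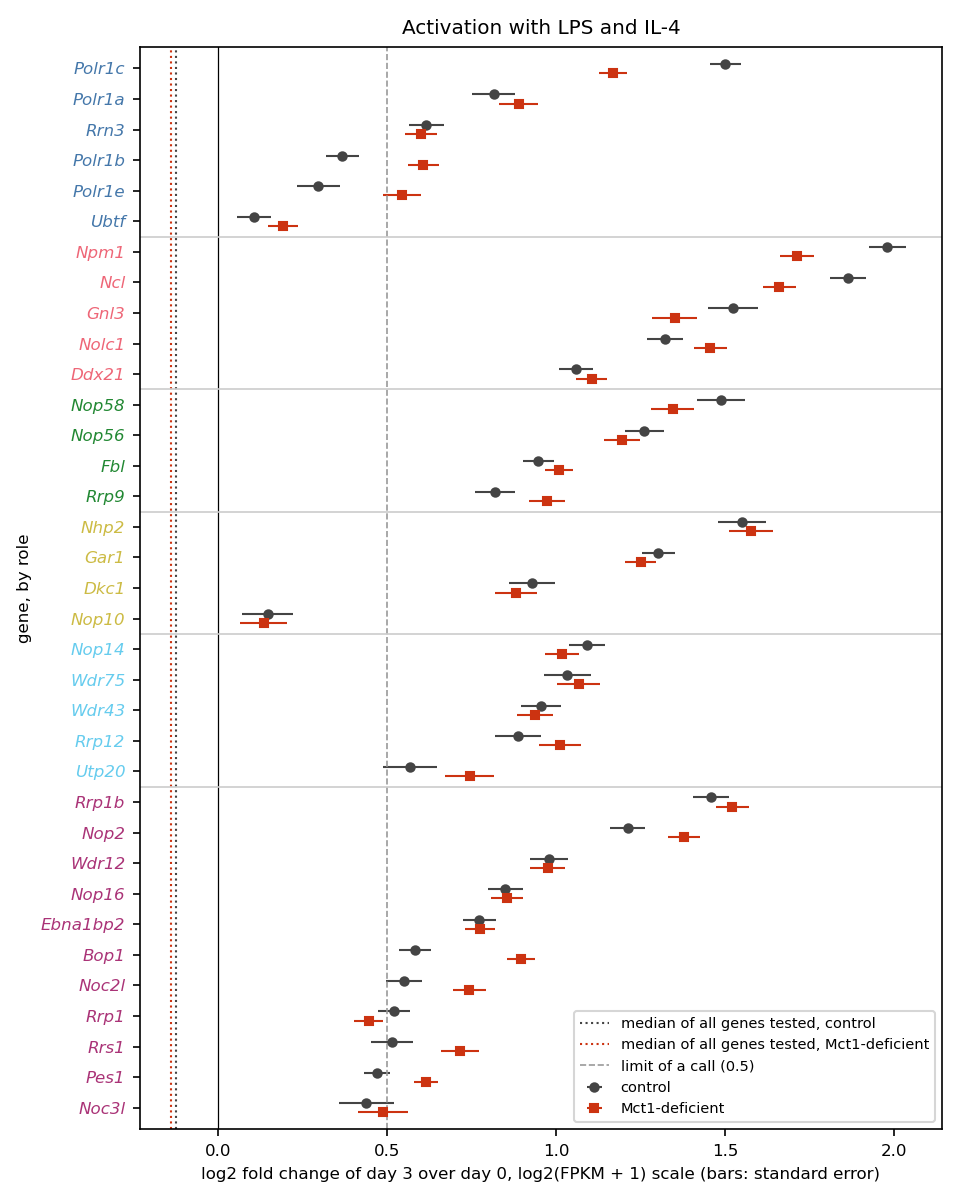
Log2 fold change of day 3 over day 0 (horizontal axis) of each gene (vertical axis, grouped by role) in control (circles) and *Mct1*-deficient B cells (squares), with standard errors as bars. Dotted lines give the medians of all tested genes (-0.12 and -0.14), the dashed line the limit of 0.5, and every gene lies to the right of both medians.

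The scale of the libraries moved these values. With another scaling the median of all genes in control B cells went from -0.12 to -0.31 (common total), 0.06 (median-of-ratios) and 0.02 (quantile normalization). The share of higher among all called genes was 42.9% without scaling and 32.0%, 55.4% and 51.3% under these 3 scalings in control B cells, and 41.4%, 31.7%, 54.9% and 51.7% in *Mct1*-deficient B cells. The median of the 35 genes above that of all genes lay between 0.85 and 1.09 in control and between 0.91 and 1.16 in *Mct1*-deficient B cells over the pseudocounts, filters, scalings and left-out libraries tried. Between 23 and 32 genes were called higher in control B cells under these scalings, and between 27 and 33 in *Mct1*-deficient B cells.

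RNA polymerase I and its factors had the smallest median change of the 6 role groups, 0.49 in control B cells and 0.60 in *Mct1*-deficient B cells. Of the 6 genes, 3 rose in control B cells (*Polr1a*, *Polr1c* and *Rrn3*) and 5 in *Mct1*-deficient B cells. *Polr1c* encodes a subunit shared by RNA polymerases I and III. It stood at 21.8 and 22.7 FPKM in the naïve control libraries, 25.4 and 24.6 FPKM in the naïve *Mct1*-deficient libraries, 65.3 and 64.2 FPKM in the activated control libraries and 57.6, 58.7 and 55.9 FPKM in the activated *Mct1*-deficient libraries. Its day 3 libraries were far above those of day 0, and the naïve and activated genotypes were in opposite order, without overlap. The naïve difference of 0.16 did not pass the test (adjusted p = 0.229, limma). *Polr1c* rose 2.91-fold in control and 2.30-fold in *Mct1*-deficient B cells (log2 fold change 1.5 ± 0.05 and 1.17 ± 0.04, SE). *Polr1b*, the gene of the second-largest subunit, had 11.3 and 11.4 FPKM in naïve control, 11.2 and 11.5 FPKM in naïve *Mct1*-deficient, 14.8 and 15.1 FPKM in activated control and 17.7, 17.6 and 18.1 FPKM in activated *Mct1*-deficient libraries. The naïve genotypes overlapped, and each activated *Mct1*-deficient library lay above both activated control libraries, a difference for which this gene was picked. Its log2 fold change of activation was 0.37 in control (adjusted p = 3.21e-05, limma, under the limit of 0.5) and 0.61 in *Mct1*-deficient B cells (adjusted p = 1.84e-07). *Ubtf* encodes UBF, which binds the ribosomal DNA and keeps it open. It had 68.5 and 66.6 FPKM in naïve control, 64.1 and 68.9 FPKM in naïve *Mct1*-deficient, 71.8 and 73.7 FPKM in activated control and 78.7, 73.6 and 75.9 FPKM in activated *Mct1*-deficient libraries. All its values lay in a narrow range. Its log2 fold change was 0.11 in control (adjusted p = 0.0672, limma) and 0.19 in *Mct1*-deficient B cells (adjusted p = 0.00215), and in control it was below 0 with scaling to a common total (-0.09) and with quantile normalization (-0.02). The other subunits and the initiation factor *Rrn3* (TIF-IA), which links polymerase I to its promoter, changed by 0.30 (*Polr1e*) to 0.81 (*Polr1a*) in control and by 0.54 to 0.89 in *Mct1*-deficient B cells.

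The nucleolar scaffold and multifunctional proteins had the largest median change, 1.52 in control and 1.46 in *Mct1*-deficient B cells, and all 5 rose in both genotypes. *Npm1* encodes nucleophosmin, an abundant chaperone of ribosome assembly. It had 427 and 438 FPKM in naïve control, 444 and 457 FPKM in naïve *Mct1*-deficient, 1686 and 1730 FPKM in activated control and 1546, 1493 and 1399 FPKM in activated *Mct1*-deficient libraries. It was the highest of the 35 genes in every library, and the activated control libraries were above all activated *Mct1*-deficient libraries. *Npm1* rose 3.95-fold in control and 3.28-fold in *Mct1*-deficient B cells (log2 fold change 1.98 ± 0.05 and 1.71 ± 0.05, SE). *Ddx21*, an RNA helicase that acts on both polymerase I transcription and snoRNA function, had 48.5 and 44.5 FPKM in naïve control, 47.0 and 48.0 FPKM in naïve *Mct1*-deficient, 94.9 and 101 FPKM in activated control and 104, 102 and 104 FPKM in activated *Mct1*-deficient libraries. The genotypes overlapped on day 0 but not on day 3, and the days were apart. It had the smallest rise of the group, 2.10-fold and 2.17-fold. Nucleolin (*Ncl*), which binds the precursor RNA and ribosomal DNA chromatin, rose 3.67-fold and 3.18-fold. *Gnl3* (nucleostemin), a GTP-binding nucleolar protein of proliferating cells, and *Nolc1*, a chaperone of snoRNPs, had log2 fold changes between 1.32 and 1.52.

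The weight of *Npm1* showed in the sum of the group. The 35 genes took 0.335% ± 0.00948 (SD, n = 2) of all FPKM in naïve control and 0.342% ± 0.00446 (SD, n = 2) in naïve *Mct1*-deficient B cells. On day 3 they took 0.742% ± 0.0238 (SD, n = 2) in control and 0.717% ± 0.0140 (SD, n = 3) in *Mct1*-deficient B cells. *Npm1* made up 26.2% to 27.3% of that sum on day 0, 41.3% to 41.6% in activated control and 36.4% to 38.7% in activated *Mct1*-deficient libraries. Without *Npm1* the activated genotypes were in the other order, at 0.434% and 0.448%, and the plot of shares by library gives both parts. Within groups the libraries were close, with a median coefficient of variation per gene of 2.62% to 3.12% and a highest value of 14.4% (*Utp20* in naïve control).

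**Figure D3:**
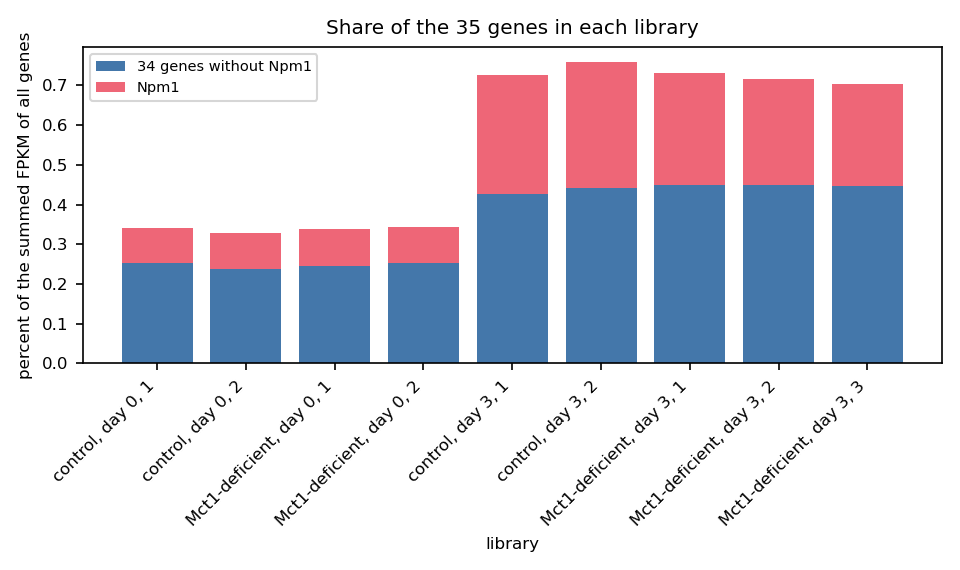
Summed FPKM of the 35 genes as a percentage of the FPKM of all genes (vertical axis, from 0) in each of the 9 libraries (horizontal axis), split into *Npm1* and the other 34 genes. The day 0 libraries lie between 0.329% and 0.345% and the day 3 libraries between 0.703% and 0.759%.

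All 4 genes of box C/D particles rose in both genotypes, with a median log2 fold change of 1.10 in each. *Fbl* encodes fibrillarin, the methyltransferase of these particles. It had 120 and 121 FPKM in naïve control, 118 and 125 FPKM in naïve *Mct1*-deficient, 241 and 226 FPKM in activated control and 246, 247 and 245 FPKM in activated *Mct1*-deficient libraries. The naïve genotypes overlapped and the activated ones did not, and the gene rose 1.94-fold in control and 2.02-fold in *Mct1*-deficient B cells. *Nop58*, a core protein that holds the particle together, had 35.6 and 35.9 FPKM in naïve control, 41.3 and 39.8 FPKM in naïve *Mct1*-deficient, 95.2 and 109 FPKM in activated control and 104, 112 and 98.4 FPKM in activated *Mct1*-deficient libraries. The naïve *Mct1*-deficient libraries were above the naïve control (log2 fold change 0.18, adjusted p = 0.376, limma), and the activated genotypes overlapped. It rose 2.86-fold and 2.58-fold. *Rrp9*, which binds the U3 snoRNA needed for early cuts of the precursor, had 19.96 and 21.4 FPKM in naïve control, 19.2 and 20.4 FPKM in naïve *Mct1*-deficient, 38.5 and 36.1 FPKM in activated control and 38.0, 41.1 and 40.4 FPKM in activated *Mct1*-deficient libraries. The genotypes overlapped on both days, and the gene rose 1.80-fold and 2.01-fold. *Nop56*, the partner of *Nop58*, rose 2.41-fold and 2.30-fold.

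Of the 4 core genes of box H/ACA particles, 3 rose in both genotypes and *Nop10* did not pass the test in either. *Nhp2* had 40.5 and 43.0 FPKM in naïve control, 38.2 and 43.2 FPKM in naïve *Mct1*-deficient, 129 and 119 FPKM in activated control and 117, 131 and 122 FPKM in activated *Mct1*-deficient libraries. The genotypes overlapped on both days and the days were far apart. *Nhp2*, an RNA-binding subunit, rose 2.97-fold and 3.03-fold. *Nop10*, the smallest core protein, had 82.2 and 72.0 FPKM in naïve control, 76.1 and 86.3 FPKM in naïve *Mct1*-deficient, 88.3 and 82.4 FPKM in activated control and 91.1, 84.9 and 91.4 FPKM in activated *Mct1*-deficient libraries. The lowest activated *Mct1*-deficient library was below the highest naïve one. Its log2 fold changes were 0.15 (adjusted p = 0.0931, limma) and 0.14 (adjusted p = 0.0887), and with scaling to a common total they were -0.05 and -0.04. *Nop10* thus had naïve levels above those of *Nhp2*, and the activated levels were in the other order, per length of transcript. *Gar1* rose 2.54-fold and 2.45-fold, and *Dkc1*, the pseudouridine synthase dyskerin, 1.94-fold and 1.88-fold.

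All 5 genes of small subunit processing rose in both genotypes, with median log2 fold changes of 0.95 and 1.01. *Nop14*, which takes part in maturation of the 18S RNA, had 20.5 and 19.1 FPKM in naïve control, 20.3 and 19.0 FPKM in naïve *Mct1*-deficient, 43.0 and 43.6 FPKM in activated control and 39.2, 41.9 and 40.9 FPKM in activated *Mct1*-deficient libraries. It had the largest change of the group in control, 2.19-fold against 2.08-fold in *Mct1*-deficient B cells. The activated control libraries were above all 3 activated *Mct1*-deficient libraries, by a log2 difference of -0.09 that did not pass the test (adjusted p = 0.281, limma). *Wdr43*, whose E-box lies just after its start, encodes a subunit of the complex that joins polymerase I transcription to early processing. It had 33.1 and 29.3 FPKM in naïve control, 31.0 and 32.7 FPKM in naïve *Mct1*-deficient, 59.98 and 62.6 FPKM in activated control and 62.8, 61.8 and 60.8 FPKM in activated *Mct1*-deficient libraries. The genotypes overlapped on both days, with a rise of 1.96-fold and 1.94-fold. *Utp20*, a large scaffold protein of the small subunit processome and one of the lowest of the 35 genes, had 7.81 and 6.37 FPKM in naïve control, 6.55 and 6.53 FPKM in naïve *Mct1*-deficient, 10.6 and 11.3 FPKM in activated control and 11.6, 11.6 and 11.7 FPKM in activated *Mct1*-deficient libraries. The naïve control libraries enclosed the naïve *Mct1*-deficient ones. Its log2 fold change was 0.57 in control and 0.74 in *Mct1*-deficient B cells, and in control it was under the limit without naïve control library 2 (0.44), with a pseudocount of 5 (0.40) and with scaling to a common total (0.38). *Wdr75* and *Rrp12* had log2 fold changes between 0.89 and 1.07.

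Of the 11 genes of large subunit processing, 9 rose in each genotype, and all 11 passed the adjusted p in both. Their median log2 fold change was 0.58 in control and 0.77 in *Mct1*-deficient B cells. *Rrp1b*, a nucleolar protein related to *Rrp1*, had 8.05 and 8 FPKM in naïve control, 8.26 and 8.82 FPKM in naïve *Mct1*-deficient, 23.3 and 24.3 FPKM in activated control and 25.8, 26.1 and 27.1 FPKM in activated *Mct1*-deficient libraries. It had the largest change of the group, 2.97-fold and 3.09-fold. *Rrp1*, which is needed for maturation of the large subunit RNA, had 86.6 and 88.6 FPKM in naïve control, 87.2 and 90.7 FPKM in naïve *Mct1*-deficient, 131 and 121 FPKM in activated control and 124, 119 and 122 FPKM in activated *Mct1*-deficient libraries. The related pair thus lay far apart in naïve level, and *Rrp1* had the smaller change. Its log2 fold change of 0.52 in control was just above the limit and that of 0.45 in *Mct1*-deficient B cells just below it, a difference of -0.07 that did not pass the test (adjusted p = 0.502, limma, interaction). Without activated control library 1 the change in control was 0.47, and the call was lost. *Noc3l*, which takes part in the movement of the large subunit precursor through the nucleus, had 10.6 and 8.89 FPKM in naïve control, 9.80 and 10.2 FPKM in naïve *Mct1*-deficient, 12.7 and 14.4 FPKM in activated control and 14.6, 14.0 and 14.6 FPKM in activated *Mct1*-deficient libraries. The days did not overlap, and the log2 fold changes of 0.44 and 0.49 stayed under the limit. In control it passed the limit without naïve control library 1 (0.55) or activated control library 1 (0.52), and in *Mct1*-deficient B cells without naïve library 2 (0.51) or activated library 2 (0.51).

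*Nop2*, the methyltransferase of the large subunit RNA whose promoter is shown above, had 24.7 and 23.8 FPKM in naïve control, 23.1 and 25.7 FPKM in naïve *Mct1*-deficient, 57.0 and 57.9 FPKM in activated control and 63.98, 66.04 and 64.9 FPKM in activated *Mct1*-deficient libraries. *Bop1*, which forms a complex with *Pes1* and *Wdr12*, had 32.2 and 33.3 FPKM in naïve control, 29.7 and 30.1 FPKM in naïve *Mct1*-deficient, 48.3 and 50.8 FPKM in activated control and 55.3, 58.1 and 56.2 FPKM in activated *Mct1*-deficient libraries. For *Bop1* the order of the genotypes was opposite on day 0 and day 3, without overlap on either. *Rrs1*, which brings the 5S particle into the precursor, had 19.1 and 18.3 FPKM in naïve control, 18.8 and 19.7 FPKM in naïve *Mct1*-deficient, 28.4 and 25.8 FPKM in activated control and 30.5, 32.8 and 33.5 FPKM in activated *Mct1*-deficient libraries. *Noc2l*, also known as an inhibitor of histone acetyltransferases, had 69.7 and 69.2 FPKM in naïve control, 67.9 and 69.2 FPKM in naïve *Mct1*-deficient, 104 and 100.1 FPKM in activated control and 108, 117 and 121 FPKM in activated *Mct1*-deficient libraries. In all 4 of these genes each activated *Mct1*-deficient library was above both activated control libraries. The activated genotypes did not overlap, in either direction, in 47.1% of all tested genes. These 4 genes were picked because they passed the adjusted p between genotypes on day 3, so this order follows largely from the choice. They rose by a log2 fold change of 0.51 (*Rrs1*) to 1.21 (*Nop2*) in control and of 0.72 (*Rrs1*) to 1.38 (*Nop2*) in *Mct1*-deficient B cells. In control the calls of *Bop1*, *Rrs1* and *Noc2l* were lost with scaling to a common total (0.38, 0.32 and 0.35). The call of *Rrs1* was also lost without naïve control library 2 (0.49) and without activated control library 1 (0.45). *Pes1* changed by 0.47 and 0.61 and *Wdr12* by 0.98 and 0.97, so that the 3 genes of the complex differed in the size of their change. *Nop16* and *Ebna1bp2* had log2 fold changes between 0.77 and 0.85.

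Whether *Mct1* deficiency altered these genes was compared on each day. With the limit of 0.5, 0 of the 35 genes were called between genotypes on day 3 by limma, where 2.42% of all tested genes were called. An unadjusted p under 0.05 was seen in 10 of the 35 (28.6%), which is close to the 29.0% of all tested genes. The median log2 difference was 0.04 (-0.01 for all tested genes), and the 95% confidence intervals of all 35 differences lay between -0.32 (*Npm1*) and 0.37 (*Rrs1*). In 16 genes, or 45.7%, the activated genotypes did not overlap, 12 with higher and 4 with lower values in *Mct1*-deficient B cells, which is close to the 47.1% of all tested genes. By the adjusted p alone, 5 genes (14.3%) were higher in *Mct1*-deficient B cells, against 6.03% of all tested genes, and 2 (5.71%) were lower, against 9.21%. This second rule was added after the values were seen. The higher ones were *Polr1b* (log2 difference 0.24, adjusted p = 0.00579), *Rrs1* (0.24, 0.0166), *Bop1* (0.19, 0.0140), *Nop2* (0.17, 0.0338) and *Noc2l* (0.17, 0.0364). The lower ones were *Npm1* (-0.21, adjusted p = 0.0171) and *Polr1c* (-0.17, adjusted p = 0.0188). The differences were thus between 0.866-fold and 1.19-fold. Of the 5 higher genes 4 belong to large subunit processing, the largest role group with 11 of the 35 genes. Among 47 further large subunit genes of the wider list described below, 5 were higher and 2 lower by the adjusted p alone, with a median difference of 0.02. *Bop1* and *Noc2l* overlap other protein-coding genes, as given above.

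Which of these genes passed the adjusted p depended on single libraries. Without activated control library 1, *Rrs1* alone remained of the 5 higher genes and neither *Npm1* nor *Polr1c* passed. Without activated control library 2, *Polr1b* and *Bop1* were kept and *Rrs1*, *Nop2*, *Noc2l*, *Npm1* and *Polr1c* were lost. Without *Mct1*-deficient library 2 the higher calls except *Polr1b* were lost, and without library 3 *Rrs1*, *Nop2*, *Noc2l*, *Npm1* and *Polr1c* were lost. Without library 1, *Nop2* was lost (adjusted p = 0.0562). No sign changed in any of these fits, and over them the log2 difference lay between 0.22 and 0.25 for *Polr1b*, 0.18 and 0.31 for *Rrs1*, 0.15 and 0.22 for *Bop1*, 0.16 and 0.19 for *Nop2* and 0.14 and 0.22 for *Noc2l*. It lay between -0.24 and -0.17 for *Npm1* and between -0.19 and -0.15 for *Polr1c*.

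**Figure D4:**
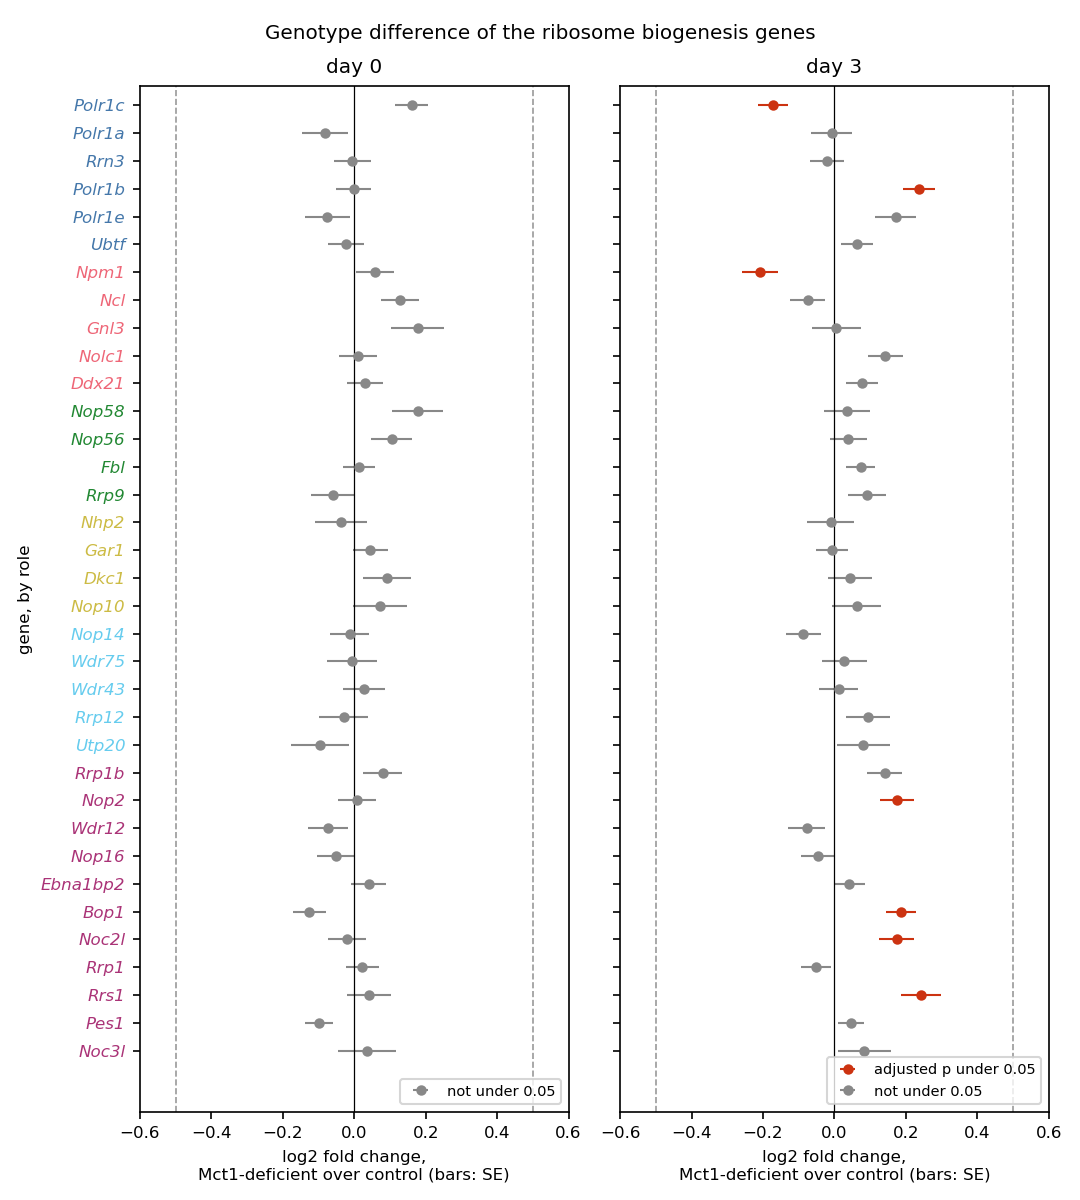
Log2 difference of *Mct1*-deficient over control B cells (horizontal axis) for each of the 35 genes (vertical axis, grouped by role) on day 0 (left) and day 3 (right), with standard errors as bars and the limits of -0.5 and 0.5 as dashed lines. No gene reached a limit on either day, and the 7 genes past the adjusted p on day 3 are in red.

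**Figure D5:**
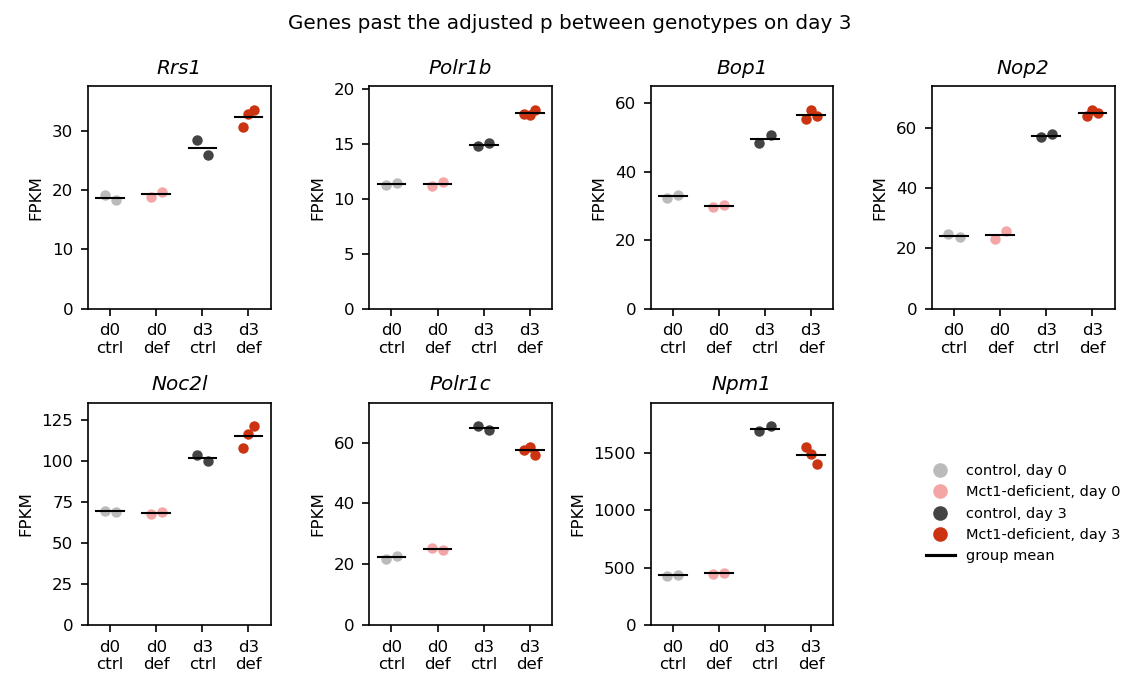
FPKM (vertical axes, from 0) of the 7 genes past the adjusted p between genotypes on day 3, with 1 point per library and a line at the group mean (ctrl, control; def, *Mct1*-deficient; d0 and d3, day 0 and day 3). The activated genotypes do not overlap in any of them, which follows largely from this choice, and their distance is small against that between the days.

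On day 0, 0 of the 35 genes were called between genotypes by limma and 0 by the adjusted p alone, against 0.277% and 0.416% of all tested genes, and 6 (17.1%) had an unadjusted p under 0.05, against 11.7% of all tested genes. The differences ran from -0.13 (*Bop1*) to 0.18 (*Gnl3* and *Nop58*), and the lowest adjusted p was 0.229 (*Polr1c*). With 2 libraries per genotype the 95% confidence intervals reached from -0.27 (*Utp20*) to 0.34 (*Gnl3*). The naïve genotypes also differed in *Ddx3y*, as given above, so the sex of the mice is partly mixed with this comparison.

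Whether activation changed these genes to a different extent in the 2 genotypes was tested by the interaction of genotype and day. With the limit of 0.5, 0 of the 35 genes were called, against 3.23% of all tested genes, and 10 (28.6%) had an unadjusted p under 0.05, against 25.4% of all tested genes. By the adjusted p alone 3 genes (8.57%) passed in limma, against 9.42% of all tested genes. The change of *Polr1c* was smaller in *Mct1*-deficient B cells by 0.33 on the log2 scale (interaction -0.33 ± 0.06, SE, adjusted p = 0.00952) and that of *Npm1* by 0.27 (-0.27 ± 0.07, adjusted p = 0.0460). That of *Bop1* was larger by 0.31 (0.31 ± 0.06, adjusted p = 0.0129). *Polr1b* missed the threshold with 0.24 (adjusted p = 0.0507). The result for *Polr1c* held under all alternatives tried. That for *Bop1* was lost without activated control library 1 (0.28, adjusted p = 0.0645), and no other alternative ended it. That for *Npm1* was lost in 15 of 19 alternatives. These were all left-out libraries but *Mct1*-deficient library 1 of day 3 (adjusted p from 0.0721 to 0.136), no filter (0.112), quantile normalization (0.0596), a common total (0.0510), no trend (0.0794), median-of-ratios scaling (0.0899), the replicate block (0.132) and the crossed block (0.0564). *Polr1b*, *Polr1e* and *Pes1*, called for activation in *Mct1*-deficient B cells alone, did not pass this test. As on day 0, the sex of the mice enters the interaction through naïve *Mct1*-deficient library 1. Without that library the interaction was -0.31 for *Polr1c*, 0.30 for *Bop1* and -0.29 for *Npm1*.

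The other genes of the pathway were taken from a list of 127 genes without the 35, all of which were tested. After activation 74 of them rose and 2 fell in control B cells, and 76 rose and 3 fell in *Mct1*-deficient B cells, with median log2 fold changes of 0.55 and 0.58. The shares called higher were 58.3% and 59.8%, against 24.8% and 23.4% of all tested genes and 82.9% and 88.6% of the 35 genes. Of the 14 further polymerase I genes 6 (42.9%) rose in each genotype, and 2 fell in control and 3 in *Mct1*-deficient B cells. Of all tested genes, 33.0% and 33.2% were called lower. *Taf1c* and *Taf1a*, subunits of the selectivity factor SL1 that places polymerase I on its promoter, fell in both. *Taf1b* and *Taf1d* of the same list were not called lower in either. *Taf1c* had 12.7 and 14.5 FPKM in naïve control and 6.78 and 7.63 FPKM in activated control libraries, and *Taf1a* had 10.0 and 9.40 against 5.92 and 7.02 FPKM. Their log2 fold changes in control were -0.83 and -0.52, in contrast to the rise of *Polr1a*, *Polr1c* and *Rrn3*. In *Mct1*-deficient B cells they were -0.65 and -0.53, and *Ttf1*, the termination factor of polymerase I, fell by 0.51 there. The values of *Taf1a* and *Ttf1* lay close to the limit of 0.5, and calls of the wider list were not followed under the other scalings. The largest rises were those of *Pno1* (log2 fold change 2.46 in control), a factor of late small subunit assembly, *Efl1* (2.03), a GTPase of late large subunit maturation, and *Utp4* (1.49), a subunit of the small subunit processome. Between genotypes 0 of the 127 genes were called on day 3 by limma, with 28 (22.0%) under an unadjusted p of 0.05 and 15 (11.8%) past the adjusted p alone, 10 higher and 5 lower. Both shares were below those of all tested genes, 29.0% and 15.2%. By direction, the 10 higher genes were 7.87% of the 127, against 6.03% of all tested genes. The 5 lower genes stand against 9.21% of all tested genes. The interaction was called in *Polr2k*, a subunit common to the nuclear RNA polymerases (-0.58, adjusted p = 0.0121). *Ttf1* and *Polr2k* were singled out after their values were seen.

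Of the 86 genes of cytosolic ribosomal proteins in the table, 82 were tested. In control B cells 54 rose and 0 fell, with a median log2 fold change of 0.62, and in *Mct1*-deficient B cells 48 rose and *Rps27* fell (-0.87), with a median of 0.54. The lowest change in control was -0.49, just inside the limit of 0.5. The interaction of genotype and day was called in *Rpl22l1* alone (-0.59, adjusted p = 0.00153, limma). *Rps27* and *Rpl22l1* were picked by these calls. The shares called higher were 65.9% and 58.5%, against 24.8% and 23.4% of all tested genes. Between genotypes on day 3, 0 of them were called by limma, 11 (13.4%) had an unadjusted p under 0.05, against 29.0% of all tested genes, and the median difference was -0.01. Across the 35 genes, which are not independent replicates, the naïve control level and the activation change in control had a Pearson's r of 0.273 on the log2 scale. The 6 hosts of snoRNA genes had a median activation change of 1.37 in control B cells, and the other 29 genes 0.82.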

How the data were processed

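RNA sequencing libraries of primary splenic B cells were grouped by genotype and day from their labels. The authors deposited FPKM values, 1 per gene and library, for 17596 genes. Assembly and analysis were done by the sequencing institute. The submitters' processing notes name Bowtie2 and GRCm38 (mm10), and the annotation and the quantification tool are not given in the sources used here. Without counts, depth is unknown and precision rests on 2 or 3 libraries per group. From the deposited FPKM, log2(FPKM + 1), which understates changes of low genes, was computed without scaling. A mean of 1 FPKM or more was required, which kept 10823 genes, all 35 among them. They were fitted with limma 3.58.1 (R 4.3.3), with 1 mean for each of 4 groups, empirical Bayes with trend and Benjamini-Hochberg adjustment over all genes. Calls required a log2 fold change beyond 0.5 in either direction and an adjusted p under 0.05. The adjusted p alone was a second rule added later. The script was tested on simulated data. The 35 genes and all lists were chosen with earlier results of these data known. Values in every library are given for the highest, most changed and least changed gene of each role group, for genes past the adjusted p between genotypes and for those not called after activation. Of the wider list, the 3 most changed genes in each direction are named. The 9 libraries carry replicate numbers. Same-numbered libraries did not deviate together (Pearson's r between -0.122 and 0.0642 over genes), so the numbers were not used for pairing. Alternatives were pseudocounts of 0.1 and 5, other filters, 3 scalings, only the groups compared, a replicate block, no trend, other fold limits and each library left out. Figures were drawn with matplotlib 3.10.9.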

Additional observations from a re-analysis of the deposited data

Results flagged for a closer look

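In 3 genes the effect of activation differed between control and *Mct1*-deficient B cells by the interaction term of limma. The interaction was -0.33 for *Polr1c*, with a smaller rise in *Mct1*-deficient B cells, 0.31 for *Bop1*, with a larger rise, and -0.27 for *Npm1*, with a smaller rise, on the log2 scale. Each passed the adjusted p and none passed the limit of 0.5, and 9.42% of all tested genes passed the adjusted p in the same test. Of 19 alternatives, the result was lost in 0 for *Polr1c*, in 1 for *Bop1* and in 15 for *Npm1*. For *Polr1c* and *Bop1* the naïve genotypes were in the opposite order to the activated ones, with day 0 differences of 0.16 and -0.13 that did not pass the test. The naïve genotypes also differed in *Ddx3y*, as given above, and the part of sex in the interaction was not tested.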

How the results depend on the processing

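With a log2 limit of 1, 14 genes rose in control and 16 in *Mct1*-deficient cells. When the limit was dropped, *Mct1* deficiency gave 5 higher and 2 lower genes on day 3, and 3 interactions. The number of higher genes became 3 without the filter on low values, 3 without the trend, and 1 to 5 with each library left out. The number of lower genes became 1 without the filter, 0 with median-of-ratios scaling, and 0 to 2 with each library left out. The 3 interactions became 1 to 4 with each library left out. The median activation change of 0.93 in control became 0.76 with a pseudocount of 5, 0.73 with scaling to a common total, 1.14 with median-of-ratios scaling and 0.87 to 0.95 with each library left out. In *Mct1*-deficient B cells, 0.97 became 0.82, 0.80, 1.18 and 0.93 to 1.00. A change below 0 was seen for *Ubtf* in control (-0.0940 with a common total, -0.0232 with quantile normalization) and for *Nop10* with a common total (-0.0543 in control, -0.0414 in *Mct1*-deficient B cells) and with quantile normalization (-0.0066 in *Mct1*-deficient B cells). The cause was not tested. Of 997 alternative values of 50 results on single genes, 911 kept direction and side of the threshold, 69 lost it, 12 gained it and 5 changed sign. These include fits that left out a library of a group outside the comparison, in which the fold change could not move. The day 3 difference of *Polr1b*, for example, stayed at 0.24 when a day 0 library was left out. The count of values kept is thus no measure of stability.

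With the replicate number as a block, 29 and 31 genes rose after activation, as without it, and 2 genes were higher and 0 lower on day 3 by the adjusted p alone. The labels do not tie a number to a mouse, and the control libraries of the same number had an r of -0.122. With the day 3 control numbers crossed in the replicate block, added after seeing the data, these counts were 2 and 1. Leaving out a library left some groups with 1 library, which was then assumed to vary like the other groups.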
